A study of Mus musculus with 98 samples.

Results

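The comparison concerns the burn model measured in blood and in spleen: whether the difference between 2 sample codes, x and c, was the same in both tissues. It uses 22 of the 98 arrays of the series, those labelled as burn and with the letter E in the title, chosen by their titles alone. Blood leukocytes with code x gave 5 arrays, blood leukocytes with code c 6, spleen with code x 6 and spleen with code c 5. The injury label is the same for all 22 arrays and describes burned mice, whichever the code. Whether the c mice were themselves injured cannot be told from it. The labels do not say what x and c stand for, and they give no strain, age, time after injury or number of animals. The spleen samples are described as leukocytes from spleen.

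A burn sets off a systemic stress response in which adrenal glucocorticoids rise, neutrophils leave the marrow and lymphocytes are lost or redistributed. The blood carries circulating leukocytes together with platelets and immature red cells. The mouse spleen holds B and T cell areas and the red pulp, where macrophages clear aged red cells and recycle their iron. In the mouse red cell precursors can also mature there. The same systemic signal can therefore meet quite different cells in the 2 tissues.

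RNA was hybridised to 1-colour Affymetrix arrays with 22690 probe sets, and the deposited values are linear intensities. Array medians lay between 120 and 128 in blood and between 76.2 and 83.5 in spleen, and the dimmest probe sets were held at 27.3 in blood and 9.68 in spleen. Levels were therefore never compared across tissues: x minus c was taken within each tissue on a log2 scale, and its value in blood minus its value in spleen, called the tissue difference here, was tested. A positive tissue difference means that x minus c was higher in blood than in spleen. In total 10247 genes and unnamed probe sets were tested, and a call means an adjusted p of 0.05 or less in limma, after Benjamini-Hochberg adjustment over all of them. As a check of RNA integrity, the log2 ratio between the 3' and 5' probe sets for beta-actin averaged 1.5 ± 0.0939 in x blood (SD, n = 5) and 1.34 ± 0.21 in c blood (SD, n = 6; exact two-sided permutation test, adjusted p = 0.596 over 4 tests). They averaged 1.71 ± 0.172 in x spleen (SD, n = 6) and 1.82 ± 0.271 in c spleen (SD, n = 5; exact permutation adjusted p = 0.874).

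The tissue labels were set against markers. Cd79b, a chain of the B cell receptor, measured 2110 to 2450 in x spleen and 2630 to 3190 in c spleen, and Vcam1, an adhesion molecule of red pulp macrophages and stroma, 505 to 817 and 799 to 1530. S100a9, an abundant neutrophil protein, measured 7450 to 11700 in x blood and 1640 to 13800 in c blood. Blood described as leukocytes also carried red cell transcripts among its brightest signals: Alas2, the erythroid enzyme that starts heme synthesis, measured 7840 to 9700 in x blood and 8180 to 10800 in c blood. In bulk samples such as these, fewer cells of a type and less RNA per cell cannot be told apart.

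A pair of c blood arrays, replicates 4 and 5, stood apart from the other 4. Each array was given a score per gene list, the average of its members' log2 values. The neutrophil score was 9.48 to 9.79 in x blood, 10.6 and 10.8 in the pair and 8.23 to 8.92 in the other c blood arrays. The B cell score was 8.62 to 8.84 in x blood, 8.64 and 8.89 in the pair and 9.37 to 9.64 in the other c blood arrays. The score of glucocorticoid-induced genes was 8.83 to 9.10 in x blood, 8.82 and 9.09 in the pair and 7.51 to 8.01 in the others. On these scores the pair lay nearer to the x arrays than to its own group, or beyond them. Results are given with and without these 2 arrays. They were picked as the 2 c blood arrays with the highest neutrophil scores, so their place on that score follows from the choice. The results without them are a check and not separate evidence.

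**Figure D1:**
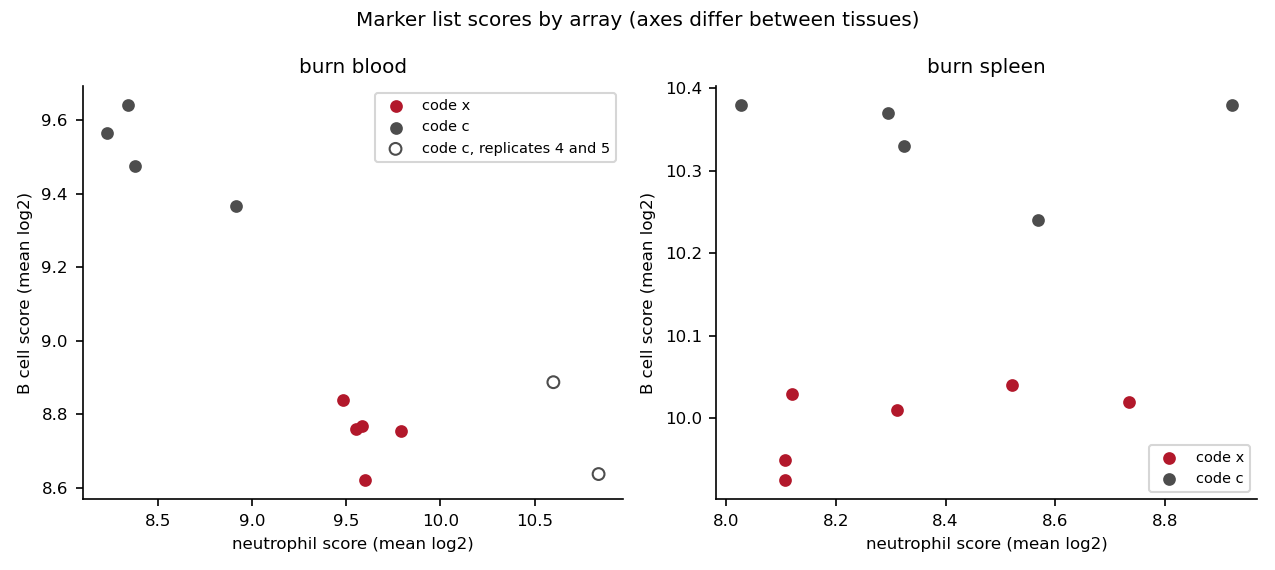
Neutrophil score (horizontal axis, mean log2) against B cell score (vertical axis, mean log2) for each of the 22 arrays, burn blood left and burn spleen right, code x in red and code c in grey. Open circles are c blood replicates 4 and 5, picked for having the highest neutrophil scores of c blood (10.8 and 10.6). The other c blood arrays sit at 8.23 to 8.92.

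The tissue difference passed the test in 361 genes, 3.52% of the 10247 tested, of which 177 were higher in blood and 184 lower. Within tissues, x and c differed in 304 genes in blood (2.97%; 190 higher in x and 114 lower) and in 1899 in spleen (18.5%; 989 higher and 910 lower; 1222 and 678 under median centring). Without the pair, 1276 genes passed for the tissue difference (12.5%; 659 higher and 617 lower) and 1713 for blood (16.7%; 941 higher and 772 lower). Of the 361 genes, 360 passed with the same sign without the pair. The median tissue difference of all genes was 0.00226 on the log2 scale, and -0.00947 without the pair.

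With all arrays most of the 361 were genes that passed in spleen, and without the pair that was not so. In spleen but not in blood 272 of them passed, 142 higher and 130 lower in x, and in blood but not in spleen 38 passed, 23 higher and 15 lower in x. In both tissues with the same sign 15 passed, with opposite signs 4, and in neither 32. Without the pair, of 1276 genes 456 passed in spleen but not in blood, 490 in blood but not in spleen, 127 in both with the same sign, 53 in both with opposite signs and 150 in neither. Across the 10247 genes, x minus c in blood and in spleen had a Pearson correlation of 0.421, and 0.396 without the pair. The 2 comparisons share no array, but genes are not independent of each other and no test is attached. The spleen arrays had title numbers in which all x came before all c, so title order and code cannot be told apart there. The blood title numbers fall in 2 runs, and within each run all c came before all x. Title order and code thus cannot be told apart within a blood run either, and the order is the reverse of that in spleen.

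**Figure D2:**
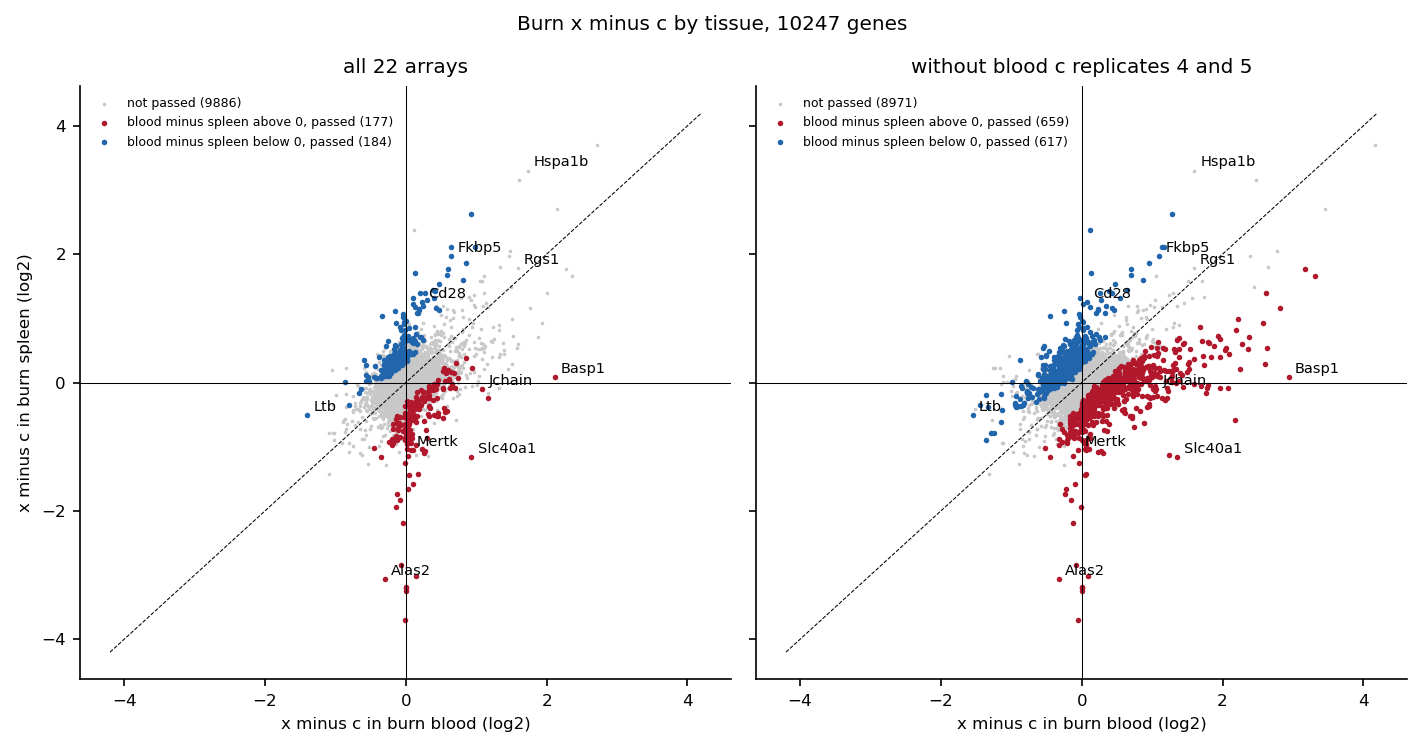
Difference x minus c in burn blood (horizontal, log2) against the same difference in burn spleen (vertical, log2) for 10247 genes, with all 22 arrays left and without c blood replicates 4 and 5 right. Red and blue points are genes whose tissue difference passed (177 and 184 with all arrays, 659 and 617 without the pair), and the dashed line marks equal differences. Alas2 lies far down on the vertical axis, and Rgs1 lies near the dashed line.

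The widest tissue differences belonged to red cell genes, which were lower in x spleen and showed no such drop in blood. Alas2 measured 7840, 7940, 8400, 9690 and 9700 in x blood, and in c blood its lowest value was 8180, its median 10500 and its highest 10800. In spleen the lowest, median and highest values of Alas2 were 14.2, 19.7 and 21.1 with code x, against 171, 265, 270, 297 and 400 with code c. The spleen groups did not overlap, and the blood groups did. The tissue difference of Alas2 was 2.77 (SE 0.19, limma adjusted p = 1.1e-09), made of -0.30 in blood (adjusted p = 0.073, and 0.0064 without the pair) and -3.06 in spleen (adjusted p = 1.4e-09). With added constants of 1 and 64 before taking logs, in place of 16, it was 3.5 and 1.75.

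Of 16 red cell genes on the erythroid list, 9 were tested. The tissue difference passed in 4 of them, all higher in blood, beside 1.73% of all genes called in that direction, and the list's median was 0.53 against 0.00226 over all genes. The other 3 were Slc4a1, the anion exchanger of the red cell membrane (1.17, SE 0.22, with its 3 probe sets between -0.08 and 2.92), Klf1, a transcription factor of red cell maturation (0.67, SE 0.14), and Fech, the last enzyme of heme synthesis (0.59, SE 0.12). The 4 probe sets of Fech had tissue differences between 0.12 and 0.77. In x spleen 5 of the 9 fell and none rose, beside 8.88% of all genes called lower there. In x blood 1 of 9 rose, the transferrin receptor Tfrc (0.61, adjusted p = 0.029), and none fell, beside 1.85% of all genes called higher there. Across the 3 probe sets of Tfrc x minus c in blood lay between -0.02 and 0.61. Without the pair 5 of 9 passed for the tissue difference, all higher in blood, beside 6.43% of all genes. The erythroid score was 6.45 to 6.69 in x spleen and 7.13 to 7.48 in c spleen, which did not overlap, and 9.11 to 9.27 in x blood against 9.02 to 9.31 in c blood, which did.

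Hemoglobin transcripts were also lower in x spleen. Hbb-b2, a beta-globin gene whose probe set can also take up signal from its near copies, measured 1160, 1210, 1220, 1220 and 1360 in x blood, with 837, 1060 and 1250 as lowest, median and highest in c blood. In x spleen the lowest, median and highest were 9.68, 13.9 and 26.7, with 2 of 6 arrays at the floor, against 165, 195, 228, 283 and 374 in c spleen. The tissue difference was 3.17 (SE 0.24, adjusted p = 7.3e-09), from 2.08 to 4.06 across the alternative settings, and 1.33 on the other probe set of Hbb-b2. A probe set annotated to more than 1 hemoglobin gene, and so left unnamed, had medians of 25400 in x blood and 25400 in c blood, and of 728 in x spleen and 6230 in c spleen, and a tissue difference of 3.18 (SE 0.22). Its blood signal was among the brightest of each array, where quantile normalization leaves little room for a difference. Without any normalization its x minus c in blood was 0.0061. The highest values of the blood arrays were 23954 to 26174. This probe set lay near that top, so no change and a signal at its ceiling cannot be told apart. The probe set named for Hba-a1 alone did not pass (tissue difference -0.18, SE 0.15). Car2, the carbonic anhydrase of red cells and other cell types, had a tissue difference of 1.68 (SE 0.28, adjusted p = 0.00099), with -1.65 in spleen and 0.03 in blood.

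Red pulp macrophage genes were also lower in x spleen. All 11 tested of the 12 on that list fell in x spleen, beside 8.88% of all genes, and in blood none of the 11 passed (0 also at an unadjusted p under 0.05). The tissue difference passed in 6 of 11, all higher in blood, beside 1.73% of all genes, with a list median of 0.81. Their score was 7.45 to 7.84 in x spleen and 8.16 to 8.91 in c spleen, which did not overlap. Without the pair the count was again 6 of 11, beside 6.43% of all genes, and in the second run of blood title numbers alone, which holds 2 x and 3 c arrays, it was 0.

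Mertk, a receptor with which macrophages take up dying cells, measured 98.9, 101, 109, 115 and 119 in x blood, with 74.7, 99.5 and 144 as lowest, median and highest in c blood. In x spleen Mertk had a lowest value of 79.3, a median of 91.0 and a highest of 124, against 171, 171, 215, 229 and 279 in c spleen. The spleen groups were apart and the blood groups overlapped, and the tissue difference was 1.12 (SE 0.20, adjusted p = 0.0017). Cd163, the receptor for hemoglobin bound to haptoglobin, had a tissue difference of 1.17 (SE 0.28), with 1 of 5 x and 2 of 6 c arrays at the floor in blood, and Vcam1 one of 0.86 (SE 0.20). Spic, the transcription factor that red pulp macrophages depend on in the mouse, had 0.55 (SE 0.14), and Axl, a relative of Mertk, 0.59 (SE 0.16). For Spic x minus c was -0.0015 in blood and -0.55 in spleen. A blood value this near 0 can come from signal at the floor, so no blood response of Spic is read. The call of Spic for the tissue difference, counted above, therefore rests on its spleen values.

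Slc40a1, the iron exporter ferroportin, had the widest tissue difference of the list. It measured 666, 825, 841, 1060 and 1090 in x blood, and in c blood its lowest value was 144, its median 368 and its highest 1990, the highest being 1 of the pair. In spleen Slc40a1 lay between 608 and 818 with code x (median 736), against 1230, 1350, 1560, 1840 and 1950 with code c. The spleen groups did not overlap. The tissue difference was 2.09 (SE 0.48, adjusted p = 0.016), with 0.93 in blood (adjusted p = 0.33) and -1.16 in spleen (adjusted p = 4.9e-06). Without the pair x minus c in blood was 1.36 (adjusted p = 0.015), so on this probe set Slc40a1 then rose in x blood and fell in x spleen. With all arrays the other probe set of Slc40a1 had 0.23 in blood, -1.09 in spleen and a tissue difference of 1.32. In the second run of blood title numbers alone its tissue difference lost the call (adjusted p = 0.32, over a range of 1.8e-05 to 0.32 across alternatives).

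Among broader macrophage and vessel markers, drops in x spleen were again more frequent than calls for the tissue difference. On the monocyte and macrophage list, 7 of 12 tested members fell in x spleen and 1 rose, Cd14, beside 8.88% and 9.65% of all genes. None of the 12 passed in blood in limma (3 at an unadjusted p under 0.05), and without the pair 1 rose and 2 fell there, beside 9.18% and 7.53% of all genes. The tissue difference passed in 2, beside 1.73% of all genes: Mrc1, the mannose receptor (0.94, SE 0.22), and Adgre4 (0.90, SE 0.19, though 0.0089 on its other probe set), both higher in blood. Stab2, a scavenger receptor of sinus endothelium, had the only call among 10 stroma and endothelium genes, beside 1.73% of all genes. It measured 75.2, 79.0, 90.2, 99.4 and 137 in x blood and 65.2 to 131 in c blood (median 79.2), and 45.3 to 66.9 in x spleen (median 55.4) against 94.2, 96.7, 104, 170 and 188 in c spleen, with a tissue difference of 1.12 (SE 0.23, adjusted p = 0.007).

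**Figure D3:**
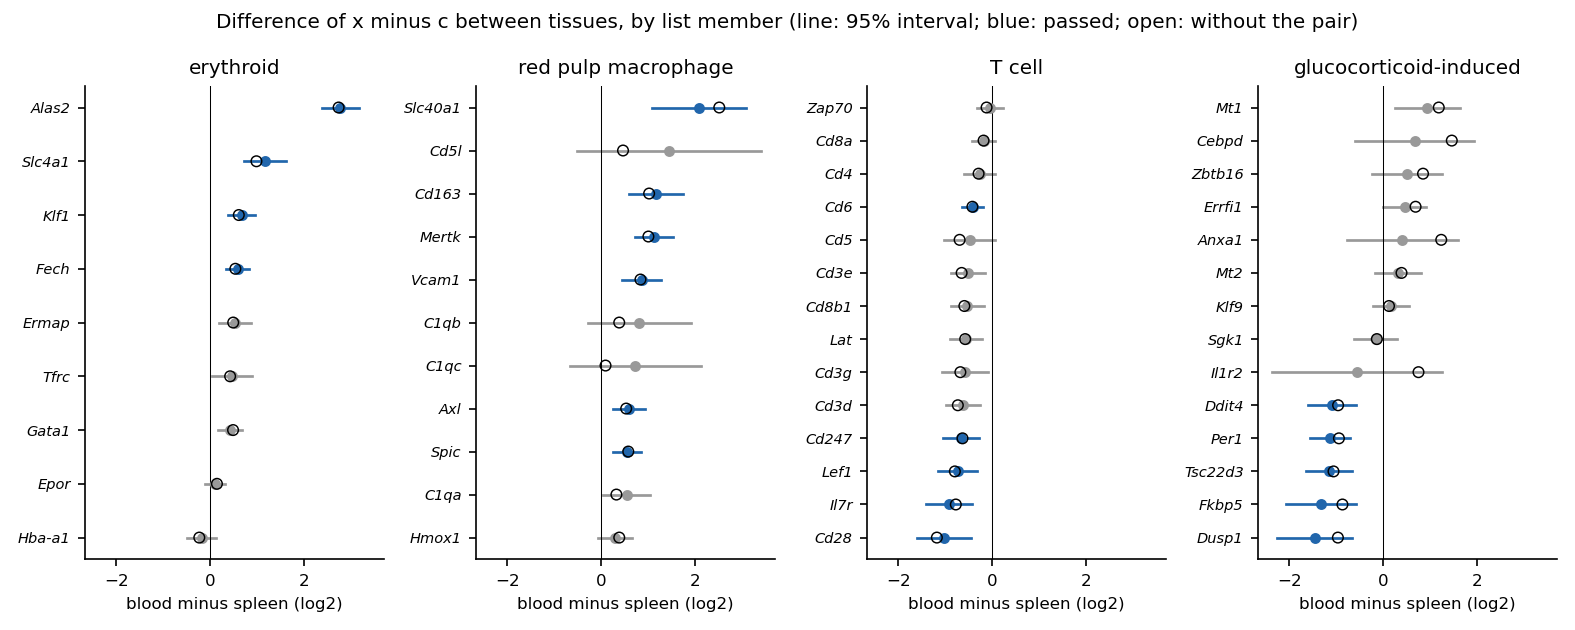
Tissue difference (x minus c in blood minus x minus c in spleen, log2) of each tested member of 4 lists: erythroid, red pulp macrophage, T cell and glucocorticoid-induced. Points are estimates from all 22 arrays with 95% intervals, in blue where the call was made, and open circles are the estimates without c blood replicates 4 and 5. All 11 red pulp macrophage estimates lie above 0 and all 14 T cell estimates below it.

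T cell genes rose in x spleen, and none passed in blood with all arrays. Of 14 tested members of the T cell list 8 rose in x spleen and none fell, beside 9.65% of all genes called higher there. In blood none of the 14 passed in limma (3 at an unadjusted p under 0.05). Without the pair 1 rose and 4 fell there, beside 9.18% and 7.53% of all genes. The T cell score was 8.64 to 8.95 in x spleen and 7.87 to 8.45 in c spleen, without overlap, and 8.46 to 8.65 in x blood against 8.36 to 8.77 in c blood.

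Il7r, the receptor for interleukin 7 that keeps resting T cells alive, measured 1090, 1260, 1290, 1310 and 1780 in x blood, with 694, 905 and 1710 as lowest, median and highest in c blood. In x spleen Il7r ranged from 1750 to 2500 with a median of 2280, against 581, 670, 920, 1070 and 1170 in c spleen. Its values overlapped in blood and not in spleen, and its tissue difference was -0.92 (SE 0.23, adjusted p = 0.03). The costimulatory receptor Cd28 had -1.03 (SE 0.28), the transcription factor Lef1 -0.74 (SE 0.20), the receptor chain Cd247 -0.66 (SE 0.18) and the surface receptor Cd6 -0.41 (SE 0.11). The 4 probe sets of Cd247 lay between -0.66 and 0.09. These were the 5 of 14 called, all lower in blood, beside 1.8% of all genes, and the list's median was -0.54.

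These T cell calls lay close to the threshold. Without the pair 10 of 14 were called, beside 6.02% of all genes, and with either run of blood title numbers alone none was. Leaving out single arrays gave 0 to 7 calls: 0 without x blood replicate 3 or 4, c blood replicate 1, x spleen replicate 1 or 2 or c spleen replicate 1 or 5. It gave 1 call without x blood replicate 5, 2 without x blood replicate 1, c blood replicate 2 or 6 or x spleen replicate 4, and 3 without c blood replicate 3. The sign was negative in 14 of 14 members with all arrays and without the pair.

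B cell genes fell in x spleen and, in smaller number with all arrays, in x blood. In x spleen 9 of 13 tested members fell and in x blood 3, beside 8.88% and 1.11% of all genes, and none rose. Without the pair 11 of 13 fell in x blood, beside 7.53% of all genes. Cr2, the complement receptor that lowers the threshold for B cell activation, measured 78.4, 80.9, 89.0, 93.3 and 95.2 in x blood, with 116, 205 and 252 as lowest, median and highest in c blood. In x spleen Cr2 ranged from 655 to 852 with a median of 780, against 1200, 1310, 1310, 1330 and 1360 in c spleen. The codes were apart in both tissues, with -1.01 in blood (adjusted p = 0.0096) and -0.78 in spleen (adjusted p = 3e-07).

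The tissue difference of Cr2 was -0.23 (95% interval -0.62 to 0.16), which did not pass, and -0.46 without the pair (adjusted p = 0.013), which did. No B cell gene was called for the tissue difference (2 at an unadjusted p under 0.05), against 7 of 13 without the pair, all with the larger drop in blood, beside 6.02% of all genes called lower then. Among these were the receptor chains Cd79a (-1.18, against -0.81 with all arrays) and Cd79b (-1.09) and the surface protein Ms4a1 (-0.71). The B cell score was 9.93 to 10 in x spleen and 10.2 to 10.4 in c spleen, without overlap.

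On the lymphocyte homing list 2 of 10 tested genes were called for the tissue difference, both lower in blood, beside 1.8% of all genes. Ltb, the lymphotoxin beta that lymphocytes use to organise follicles, measured 273, 296, 310, 325 and 330 in x blood, with 548, 839 and 1010 as lowest, median and highest in c blood. In x spleen Ltb ranged from 1010 to 1260 with a median of 1170, against 1360, 1590, 1610, 1660 and 1800 in c spleen. It fell in x in both tissues without overlap, by 1.40 in blood and by 0.51 in spleen on the log2 scale, and its tissue difference was -0.89 (SE 0.18, adjusted p = 0.0054).

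Cxcr5, the chemokine receptor that guides B cells into follicles, measured 55.2, 56.4, 56.9, 58.9 and 61.0 in x blood, with 81.3, 121 and 151 as lowest, median and highest in c blood. In x spleen Cxcr5 ranged from 192 to 404 with a median of 350, against 268, 269, 318, 334 and 369 in c spleen. It fell in x blood and overlapped in spleen, with a tissue difference of -0.87 (SE 0.19, adjusted p = 0.013). The median of the homing list was -0.34. Among 8 tested NK cell genes 5 had a positive and 3 a negative tissue difference, with a median of 0.11. Of the 8, 1 was called, lower in blood, beside 1.8% of all genes. It was Prf1, the pore protein perforin of NK and cytotoxic T cells, which fell by 0.45 in x blood (adjusted p = 0.042), with 0.09 in spleen and a tissue difference of -0.54 (SE 0.14, adjusted p = 0.03). On its other probe set x minus c in blood was -0.02 and the tissue difference -0.04. The call of Prf1 was lost without x blood replicate 3 or 4, x spleen replicate 1 or c spleen replicate 1 or 2, and in the second blood run (adjusted p up to 0.26, over a range starting at 0.0041).

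Jchain, which joins the units of secreted IgM and IgA in plasma cells, was the named gene with the clearest rise in x blood and not in x spleen. Jchain measured 159, 170, 172, 199 and 220 in x blood, and in c blood its lowest value was 64.2, its median 75.6 and its highest 97.9. In x spleen it ranged from 1570 to 2060 with a median of 1790, against 1780, 1870, 1870, 1880 and 1990 in c spleen. The blood groups did not overlap, nor did the pair stand apart here, and the spleen groups overlapped. Its tissue difference was 1.18 (SE 0.14, adjusted p = 1.1e-05), with 1.08 in blood (adjusted p = 0.00046) and -0.10 in spleen. The other 4 tested plasma cell genes did not pass for the tissue difference. Prdm1, the transcription factor that drives plasma cell formation, had a tissue difference of -0.27, and Irf4, a factor of activated B and plasma cells, 0.09.

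Glucocorticoid-induced genes rose in x spleen, and 5 of them had a higher x minus c in spleen than in blood. Of 14 tested members 9 rose in x spleen, beside 9.65% of all genes called higher there, and 2 in x blood, beside 1.85%, and none fell in either. Without the pair, whose scores on this list were like those of x blood, 13 of 14 rose in x blood, beside 9.18% of all genes. The tissue difference was called in Dusp1, Fkbp5, Tsc22d3, Per1 and Ddit4, all lower in blood, beside 1.8% of all genes, and the list's median was 0.0019. Without the pair the same 5 were called lower in blood (from -0.87 to -1.06) and another 5 higher: Anxa1 (1.23), Errfi1 (0.69), Zbtb16 (0.84), Cebpd (1.46) and the metallothionein Mt1 (1.18). The shares of all genes called without the pair were 6.02% lower and 6.43% higher.

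Promoter sequences of 3 of these genes are shown because they carry motifs of the searched set within 250 bases before to 50 bases after the start of the gene. Sequences are from RefSeq, build GRCm38.p6, written 5' to 3' on the gene's strand, with the E box CACGTG and the cyclic AMP element TGACGTCA in capitals. Per1 at chr11:69098699-69098998, plus strand, holds 1 E box. Fkbp5 at chr17:28486100-28486399, minus strand, holds 1 E box. Dusp1 at chr17:26508423-26508722, minus strand, holds 1 cyclic AMP element and 1 E box.
Per1: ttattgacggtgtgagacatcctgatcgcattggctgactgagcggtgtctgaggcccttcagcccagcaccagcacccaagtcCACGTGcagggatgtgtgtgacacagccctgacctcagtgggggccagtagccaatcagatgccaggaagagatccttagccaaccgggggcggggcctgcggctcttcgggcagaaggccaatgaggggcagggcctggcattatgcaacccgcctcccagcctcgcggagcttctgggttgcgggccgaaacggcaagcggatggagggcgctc
Fkbp5: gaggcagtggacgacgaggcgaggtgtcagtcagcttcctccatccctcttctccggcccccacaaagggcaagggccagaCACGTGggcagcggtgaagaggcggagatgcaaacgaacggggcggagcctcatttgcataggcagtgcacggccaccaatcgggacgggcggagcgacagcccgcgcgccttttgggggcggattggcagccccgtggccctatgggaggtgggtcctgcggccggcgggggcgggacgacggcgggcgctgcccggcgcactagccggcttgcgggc
Dusp1: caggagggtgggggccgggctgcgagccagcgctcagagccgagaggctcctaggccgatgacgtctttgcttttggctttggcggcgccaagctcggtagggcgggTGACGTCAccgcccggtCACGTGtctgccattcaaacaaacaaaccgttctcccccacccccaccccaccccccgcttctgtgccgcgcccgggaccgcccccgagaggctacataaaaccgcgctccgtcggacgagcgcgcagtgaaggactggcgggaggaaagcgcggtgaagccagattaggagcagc
Of all 32851 promoters in the RefSeq table, 7.15% hold the E box on either strand and 1.79% the cyclic AMP element. Among promoters of tested genes the shares were 9.72% and 2.63%. Among those of genes with a tissue difference called lower in blood they were 13.5% and 2.34%. The palindromic glucocorticoid response element was found in 0.00913% of all promoters and in none of these 3. Another listed start of Per1 and all 3 listed starts of Tsc22d3 held none of the motifs searched.

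Per1, a repressor of the circadian clock that glucocorticoids also induce, measured 338, 351, 363, 371 and 397 in x blood, with 137, 155 and 246 as lowest, median and highest in c blood. In x spleen Per1 ranged from 232 to 424 with a median of 301, against 49.2, 57.6, 60.5, 60.7 and 63.0 in c spleen. The codes were apart in both tissues, and the 2 highest c blood values belonged to the pair. It rose by 0.98 in blood (adjusted p = 0.0028) and by 2.12 in spleen (adjusted p = 1.8e-08), and the tissue difference was -1.14 (SE 0.20, adjusted p = 0.002). The second blood run alone lost the call (adjusted p = 0.078, over a range of 0.00068 to 0.078).

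Fkbp5, a chaperone partner that dampens the glucocorticoid receptor, measured 302, 394, 412, 420 and 436 in x blood, with 151, 178 and 630 as lowest, median and highest in c blood. In x spleen Fkbp5 ranged from 312 to 704 with a median of 528, against 91.4, 100, 118, 119 and 133 in c spleen. In blood the pair lay at 400 and 630 while the other c arrays reached 180, so the codes overlapped there only through the pair. Its tissue difference was -1.33 (SE 0.36, adjusted p = 0.041) and -0.87 without the pair (adjusted p = 0.012). The other probe set of Fkbp5 had a tissue difference of -0.25, with -0.04 in blood and 0.21 in spleen.

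Dusp1, a phosphatase that switches off MAP kinases, measured 3580, 4220, 4740, 4850 and 5020 in x blood, with 1080, 2380 and 5460 as lowest, median and highest in c blood. In x spleen Dusp1 ranged from 1200 to 1740 with a median of 1420, against 187, 313, 316, 370 and 513 in c spleen. Its tissue difference was -1.47 (SE 0.39, adjusted p = 0.037). The calls of Dusp1 and Fkbp5 lay near the threshold and were lost in 18 and 21 of 40 alternatives, with adjusted p up to 0.17 and 0.15.

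Tsc22d3, which encodes the glucocorticoid-induced leucine zipper protein, had a tissue difference of -1.16 (SE 0.24, adjusted p = 0.0066), with 0.60 in blood and 1.76 in spleen. Ddit4, an inhibitor of mTOR complex 1, had -1.09 (SE 0.25, adjusted p = 0.015). The count of 5 fell to 3 without any 1 of the 5 x blood arrays, and without x spleen replicate 1 or c spleen replicate 1 or 2.

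**Figure D4:**
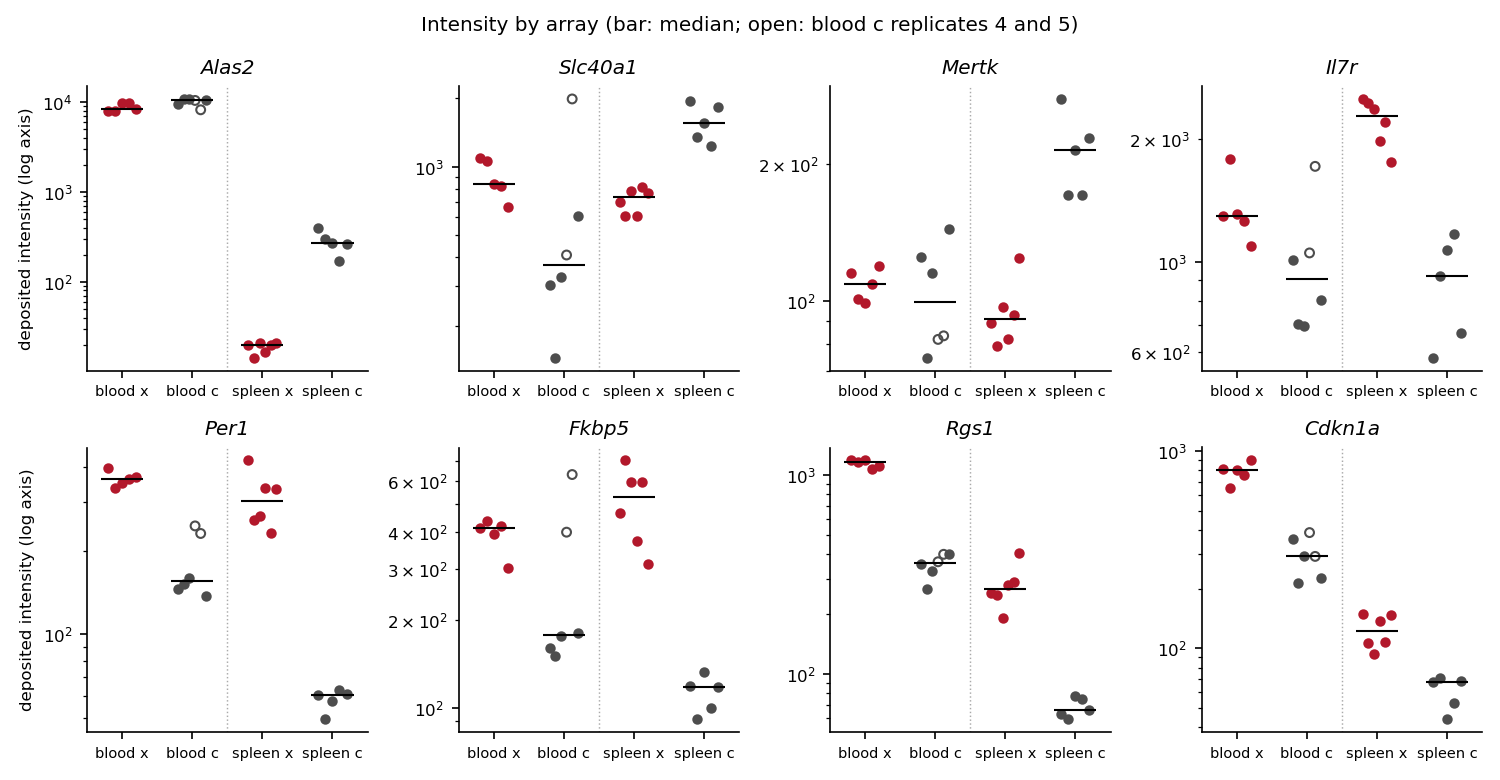
Deposited intensity (log axis) of 8 genes in each array, by group: x blood, c blood, x spleen and c spleen from left to right, with bars at the medians and c blood replicates 4 and 5 as open circles. Blood and spleen are on different deposited scales and are separated by a dotted line. Alas2, Mertk and Il7r are apart by code in spleen alone, and Per1, Rgs1 and Cdkn1a in both tissues.

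Immediate early genes were called in both directions. In x spleen 7 of 22 rose and 3 fell, beside 9.65% and 8.88% of all genes, and in x blood 1 rose, beside 1.85%. For the tissue difference 3 were called lower and 1 higher in blood, beside 1.8% and 1.73%. Dusp2, a nuclear phosphatase of activated lymphocytes, measured 902, 972, 1020, 1030 and 1090 in x blood, with 971, 1250 and 1420 as lowest, median and highest in c blood. In x spleen Dusp2 ranged from 1090 to 1280 with a median of 1240, against 422, 541, 571, 662 and 693 in c spleen. It was apart by code in spleen and overlapped in blood, and its tissue difference was -1.37 (SE 0.18, adjusted p = 4e-05). The AP-1 subunits Junb (-0.89, SE 0.23) and Fosb (-0.68, SE 0.15) were also called lower in blood. Ier5, an immediate early regulator of heat shock factor activity, was called higher in blood (0.86, SE 0.17), with -0.60 in spleen. Across the 3 probe sets of Ier5 the tissue difference lay between -0.10 and 0.86, so the direction is that of the brightest alone.

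Neutrophil genes turned on the pair, which was picked by its scores on this list. The change without the pair therefore follows in part from that choice. With all arrays none of 17 tested members passed in blood or for the tissue difference (1 and 2 at an unadjusted p under 0.05). In x spleen 2 fell, beside 8.88% of all genes. Without the pair 12 of 17 rose in x blood, beside 9.18% of all genes, and 11 of 17 were called higher for the tissue difference, beside 6.43%. S100a9 measured 7450, 9640, 9790, 10000 and 11700 in x blood, and in c blood its lowest value was 1640, its median 3540 and its highest 13800. In x spleen S100a9 ranged from 2610 to 4240 with a median of 2930, against 2200, 2610, 3130, 3410 and 4430 in c spleen.

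The 2 highest c blood values of S100a9, 13500 and 13800, were those of the pair and lay above all x values. The other 4 reached 4860 and lay below all of them, and the spleen groups overlapped. The tissue difference of S100a9 was 1.04 (SE 0.54, adjusted p = 0.31), and 1.82 without the pair. Ngp and Camp, proteins of neutrophil granules, had tissue differences of 1.3 (SE 1.01) and 1.26 (SE 0.83), and of 2.76 and 2.37 without the pair. Camp was also lower in x spleen (-1.12, adjusted p = 0.0073), and without the pair it rose in x blood (1.24). Basp1, a membrane protein of growing nerve ends that blood leukocytes also express, measured 749 to 1480 in x blood and 108 to 1300 in c blood, and had a tissue difference of 2.03 (SE 0.57, adjusted p = 0.049) that was lost in 25 of 40 alternatives and was 2.86 without the pair (adjusted p = 1.6e-09).

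Some genes moved the same way in both tissues. In all, 176 genes passed in both with 1 sign, 119 higher and 57 lower in x, which is 57.9% of the blood calls and 9.27% of the spleen calls. Without the pair there were 544, 353 higher and 191 lower, or 31.8% of the blood calls and 28.6% of the spleen calls. Rgs1, a brake on chemokine receptor signalling in lymphocytes, measured 1070, 1110, 1160, 1180 and 1180 in x blood, with 268, 361 and 402 as lowest, median and highest in c blood. In x spleen Rgs1 ranged from 192 to 404 with a median of 268, against 59.2, 62.8, 65.7, 75.1 and 77.6 in c spleen. The codes were apart in both tissues, the pair did not stand out, and the tissue difference was -0.19 (95% interval -0.56 to 0.17).

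Other shared rises were Nfil3, a repressor at D box elements (2.01 in blood, 1.39 in spleen), Bcl2l11, the proapoptotic protein Bim (1.14 and 1.24), the lymphocyte phosphatase Ptpn22 (1.11 and 1.40) and the glucose-sensing factor Mlxip (1.10 and 1.19). Their tissue differences had 95% intervals of -0.32 to 1.55, -0.63 to 0.43, -0.64 to 0.07 and -0.57 to 0.39, which leave room for differences of these sizes. Without the pair Nfil3 was called higher in blood (1.23, adjusted p = 0.0011). The 5 probe sets of Bcl2l11 had tissue differences between -1.05 and 0.04. Shared drops included Gm20559, which has no role stated here (-0.81 in blood, -1.08 in spleen), and genes of lymphocytes: Cd180, a Toll-like receptor relative on B cells (-1.09 in blood, -1.42 in spleen), the transcription factor Bcl11a (-0.90 and -0.94), the adhesion receptor Cd48 (-1.04 and -0.79) and Tnfrsf13b, the receptor TACI (-1.09 and -0.78). Without the pair Tnfrsf13b was called lower in blood for the tissue difference (-0.51, adjusted p = 0.024, against -0.31 with all arrays).

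The cell cycle inhibitor Cdkn1a, a p53 target picked from its list after its values were seen, measured 654, 760, 803, 813 and 899 in x blood, with 216, 295 and 387 as lowest, median and highest in c blood. In x spleen Cdkn1a ranged from 94.1 to 150 with a median of 123, against 43.6, 52.6, 67.3, 68.3 and 71.1 in c spleen. The codes did not overlap in either tissue. It rose by 1.33 in blood and by 0.89 in spleen, with a tissue difference of 0.44 (SE 0.21, adjusted p = 0.25). The other probe set of Cdkn1a had 0.15 in blood and 0.13 in spleen. On the same list of 13 tested genes Bcl2, the survival protein, was the 1 call for the tissue difference. It was lower in blood (-0.46, SE 0.10), beside 1.8% of all genes, with -0.18 in blood and 0.28 in spleen.

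The inducible chaperone Hspa1b rose in x in both tissues and varied most within x spleen. Hspa1b measured 545, 560, 840, 1040 and 1050 in x blood, with 181, 196 and 275 as lowest, median and highest in c blood. In x spleen the 6 arrays gave 344, 418, 528, 2730, 2810 and 3920, against 80.8, 87.9, 106, 119 and 124 in c spleen. The x spleen arrays with replicate numbers 1, 4 and 5 thus lay far above the other 3, and all 6 lay above c spleen. Its near copy Hspa1a, with which it can share signal, was at 724, 1210 and 729 in the same 3 x spleen arrays and at 87.5 to 123 in the other 3. The tissue difference of Hspa1b was -1.57 (95% interval -2.94 to -0.19) and did not pass (adjusted p = 0.2). Of 17 heat shock genes tested, 4 rose in x spleen and 2 in x blood, beside 9.65% and 1.85% of all genes, and none was called for the tissue difference in limma (6 at an unadjusted p under 0.05). Without the pair 2 were called lower in blood and 1 higher, beside 6.02% and 6.43% of all genes. Hspa1a was among the lower (-2.25, adjusted p = 0.034), and the chaperone Hspa4 was the higher (0.49, adjusted p = 0.0046).

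Opposite directions were rare. With all arrays 4 genes passed in both tissues with opposite signs and for the tissue difference. Specc1 measured 329, 333, 342, 350 and 367 in x blood, with 237, 267 and 275 as lowest, median and highest in c blood. In x spleen Specc1 ranged from 59.8 to 79.9 with a median of 74.8, against 87.0, 97.7, 101, 106 and 111 in c spleen. The codes were apart in both tissues, in opposite order, and the tissue difference was 0.74 (SE 0.09, adjusted p = 1.2e-05), with 0.35 in blood and -0.39 in spleen.

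D17H6S56E-5 ran the other way, with -0.57 in blood and 0.28 in spleen and a tissue difference of -0.85 (SE 0.14). So did Hopx, a homeodomain protein of some T and NK cells (-0.28 and 0.25), and the retinol dehydrogenase Rdh14 (-0.28 and 0.21). The other probe set of Rdh14 had -0.04 in blood and 0.12 in spleen. All 4 passed without the pair, when 53 genes passed with opposite signs, Slc40a1 and Camp among them.

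Several genes outside the lists had wide tissue differences. Zfp1, a zinc finger protein, measured 181, 193, 200, 206 and 243 in x blood, with 159, 183 and 208 as lowest, median and highest in c blood. In x spleen Zfp1 ranged from 356 to 419 with a median of 376, against 69.1, 98.9, 101, 111 and 160 in c spleen. Its tissue difference was -1.57 (SE 0.18, adjusted p = 5.2e-06). Ppp1r21 (-1.19, SE 0.10), the carboxylesterase Ces2a (-1.25, SE 0.16), the kinase Plk2 (-1.21, SE 0.22) and Gramd3 (-1.12, SE 0.15) likewise rose in x spleen, by 1.11 to 1.39, and lay between -0.15 and 0.21 in blood.

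In the other direction lay Cdkn2d, an inhibitor of cyclin-dependent kinases (1.80, SE 0.18), Gdpd2 (1.74, SE 0.20), Sash1 (1.60, SE 0.27) and the histone H2bc22 (1.36, SE 0.20), which in x spleen were at -1.94, -1.83, -1.42 and -1.09. Rsad2, the antiviral protein viperin, had a tissue difference of 1.48 (SE 0.18, adjusted p = 1e-05). It measured 9510 to 10900 in x blood and 8100 to 10200 in c blood, and 174 to 285 in x spleen against 481, 597, 644, 726 and 831 in c spleen. The other interferon-induced genes did not follow Rsad2: of 23 tested the only other call was the nucleic acid sensor Zbp1, lower in blood (-0.52, SE 0.10), and the list's median was -0.0036. For the tissue difference the 3 probe sets of Rsad2 lay between 0.41 and 1.48, and the 2 of Zbp1 between -0.52 and -0.14.

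The remaining lists showed few calls for the tissue difference. Of 21 cell cycle genes 9 fell in x spleen, beside 8.88% of all genes. None passed in blood (0 at an unadjusted p under 0.05). The ribonucleotide reductase subunit Rrm2 was the only one called for the tissue difference (0.83, SE 0.18), higher in blood, beside 1.73% of all genes. Its 3 probe sets lay between 0.20 and 0.83. Atf4, the transcription factor of the amino acid and stress response, was called among 16 unfolded protein response genes (0.63, SE 0.13), beside 1.73% of all genes. It had 0.54 in blood and -0.10 in spleen, and its 3 probe sets lay between -0.06 and 0.63 for the tissue difference. Per1 was the 1 call among 14 circadian clock genes, beside 1.8% of all genes called lower in blood. Of 21 inflammatory cytokine and NF-kB target genes 9 rose and 4 fell in x spleen, beside 9.65% and 8.88% of all genes, and none passed in limma in blood or for the tissue difference (4 and 2 at an unadjusted p under 0.05). Without the pair 11 rose and 3 fell in x blood, beside 9.18% and 7.53% of all genes. Without the pair 5 were called higher in blood for the tissue difference, among them the prostaglandin synthase Ptgs2 (1.66) and Tnfaip2 (2.05), and Relb was called lower (-0.55), beside 6.43% of all genes higher and 6.02% lower. With all arrays the probe sets of Tnfaip2 ranged from -0.0070 to 1.17 for the tissue difference, those of Cebpd from -0.01 to 0.66, those of Errfi1 from -0.12 to 0.45 and those of Hspa4 from -0.09 to 0.42.

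No member was called for the tissue difference among 9 platelet, 4 dendritic cell, 8 MHC class II, 10 acute phase, 14 glycolysis, 16 ribosomal protein and 25 oxidative phosphorylation genes (0, 1, 2, 0, 0, 1 and 4 at an unadjusted p under 0.05 in limma). The member with the smallest p of each was Itga2b (-0.14), Itgax (0.51), H2-DMa (-0.58), Saa3 (-1.24), Pgam1 (0.43), Rpl8 (-0.38) and Atp5a1 (-0.42). List medians there ran from -0.10 to 0.17. Without the pair 7 of 25 oxidative phosphorylation genes were called lower in blood, with a median of -0.17, as were 2 of 8 MHC class II and 2 of 16 ribosomal protein genes, and 3 of 14 glycolysis genes were called higher, beside 6.02% of all genes called lower and 6.43% higher.

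**Figure D5:**
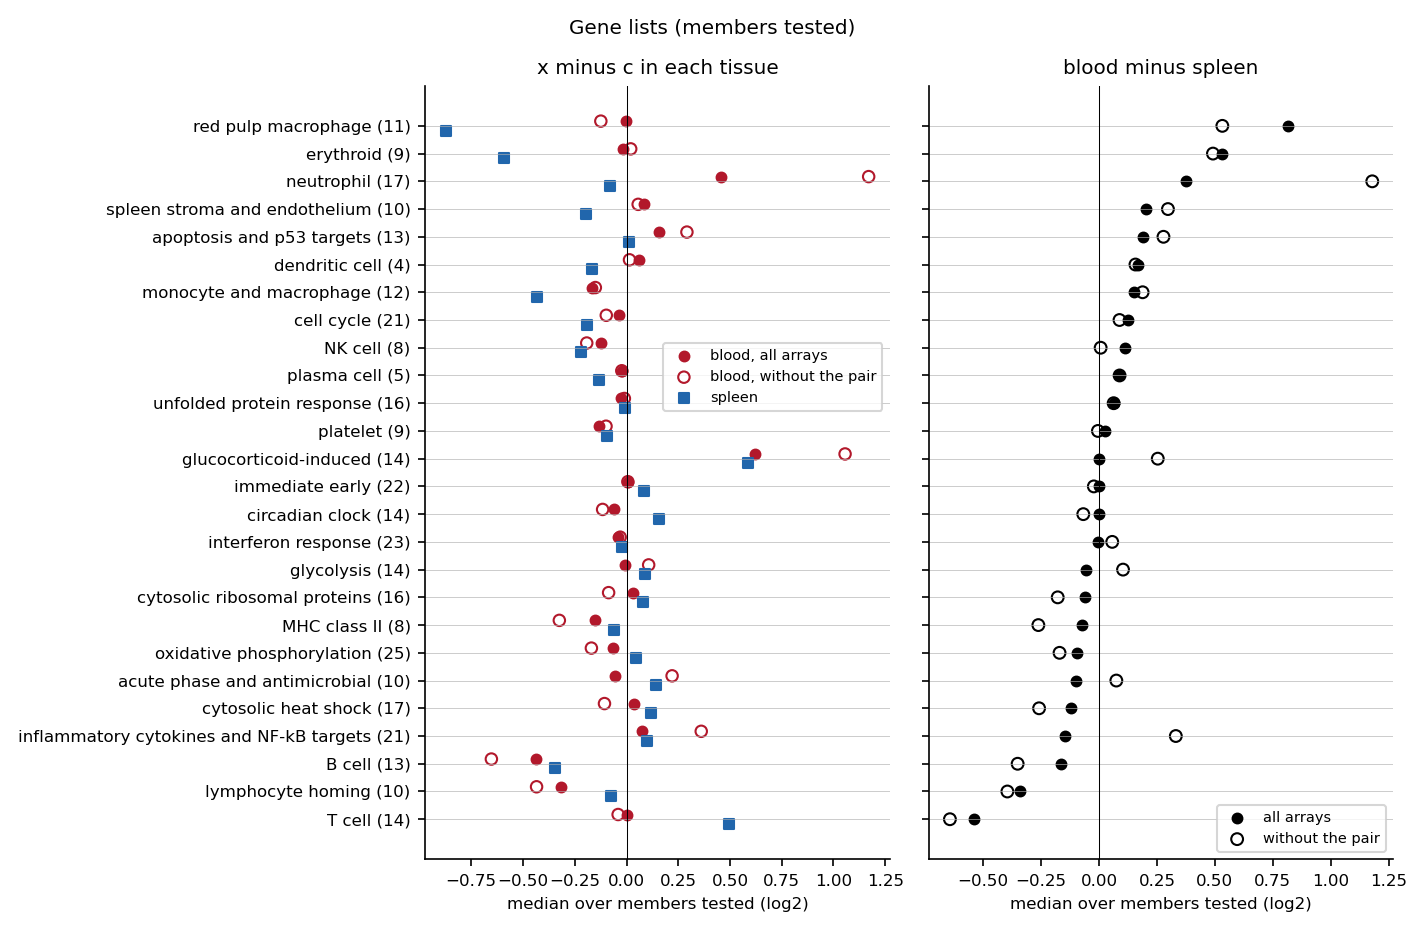
Median x minus c over the tested members of each list in blood (red circles, open without the pair) and spleen (blue squares) on the left, and the median tissue difference on the right (filled, open without the pair), in log2. Numbers beside the names are members tested. The neutrophil median moves from 0.38 with all arrays to 1.18 without the pair, which was picked by neutrophil score. The T cell median is -0.54 and -0.64.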

How the data were processed

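The deposited values are intensities on a linear scale, 1 for each probe set and array. The sources used here do not give the software or scaling by which the authors made these intensities. The 64 control probe sets were left out. Of 22626 others, 20380 had 1 symbol in the platform annotation, 691 several and 1555 none, and 20351 of the single symbols matched the GRCm38 gene table, which gave current symbols. Where a gene had several probe sets, the brightest on average was used. Intensities were taken as log2(value + 16) and quantile normalized within each tissue, and genes under the 30th percentile of the mean were left out. The added 16 makes changes of dim genes too small.

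Tests used the limma package (version 3.58.1, R 4.3.3; eBayes with a trend, two-sided, Benjamini-Hochberg adjustment). The tissue difference was fitted over all 22 arrays with 4 group terms, and x minus c on the 11 arrays of a tissue. No label says that arrays are from separate animals: the p-values reflect only how these samples varied, which may be technical variation. The number of arrays limits the precision. On simulated data for the tissue difference (10247 genes), 71.7% of changes of 0.5 log2 were recovered, 96.5% of 1 and 100% of 2, with 10 false calls. The simulation drew normal noise independently for each gene and array, with changes in x blood only. It held nothing like the pair of c blood arrays, so its rates cannot be taken as those of the real arrays.

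Members and lists were chosen with earlier results of these data known. The named genes were the 10 widest tissue differences of each sign, 4 of each kind with opposite signs, the 6 widest shared rises and drops, and from each list the 2 called members with the smallest p, or 1 where none was called. Unnamed probe sets took 6 of the 10 places at the positive end, so the ranking was extended to genes with a symbol, and further list members are named as examples, both after their values were seen. Alternatives were other constants, scalings and filters, every probe set, weights, a robust variance, blood title-number runs, the beta-actin ratio, a threshold of 1 log2, and leaving out the pair or each array.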

Additional observations from a re-analysis of the deposited data

Results flagged for a closer look

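The difference of x minus c between burn blood and burn spleen passed the test in 361 genes. Of these, 4 passed with opposite signs in the 2 tissues: Specc1 (0.741646 on the log2 scale for blood minus spleen), D17H6S56E-5 (-0.848686), Hopx (-0.524066) and Rdh14 (-0.496567). Among 112 sets of array values tested for an extreme array, 2 stood out, and chance gives about 1 in 20. The plasma cell score of x spleen replicate 2 was 7.95, with the other 5 x spleen arrays at 7.85 to 7.89. The glycolysis score of x spleen replicate 1 was 8.6, with the others at 8.46 to 8.49. The causes were not tested.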

How the results depend on the processing

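No paired analysis was possible because the replicate numbers only follow the order of the samples. The tissue difference, called in 361 genes, gave 561 with every probe set, 1126 with array weights, 718 with the beta-actin ratio as a covariate, 1276 without the pair, 379 and 79 in the first and second blood title-number runs and 56 with a difference of at least 1 log2. The blood calls, 304 with all arrays, gave 459, 1296, 1157 and 1713 under the first 4 of these, 80 in the first run, 0 in the second in limma (545 at an unadjusted p under 0.05) and 26 at 1 log2, and the spleen calls 104 at 1 log2. Leaving out 1 array gave 210 to 643 calls for the tissue difference, the lowest without c spleen replicate 1 and the highest without c blood replicate 5. It also gave 240 without x blood replicate 1, 233 without x blood replicate 4 and 571 without c spleen replicate 4. For blood the range was 127 to 917: the 5 x blood arrays gave 127 to 157, c blood replicates 1 to 3 gave 188, 177 and 144, and c blood replicate 5 gave 917. For spleen it was 1431 to 2255. No called named gene turned sign in any of these. The causes were not tested.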
